A study of Mus musculus with 8 samples.

Results

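Splicing factor and hnRNP genes were examined across all cell clusters of cultured mouse fat precursor cells. The members were all genes of the cluster marker table whose symbol starts with Srsf, Hnrnp, Snrp, Sf3a or Sf3b. These numbered 41 of the 3896 genes counted in the table and held 128 of its gene-by-cluster entries. They fell into 4 families, with 9 SR protein genes, 17 hnRNP genes, 9 genes of Sm and other small nuclear ribonucleoprotein (snRNP) proteins, and 6 genes of the SF3a and SF3b complexes. The annotation holds 52 protein-coding genes with these prefixes. The 11 with no entry in the table as used here were Srsf4, Srsf12, Hnrnpdl, Hnrnph3, Hnrnpll, Snrpa, Snrpb2, Snrpn, Sf3a1, Sf3a2 and Sf3b4.

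Preadipocytes came from the inguinal white adipose tissue of adult C57BL/6 wild-type (WT) mice and of Hmgn1-/- and Hmgn2-/- double knockout (DKO) mice, which lack both nucleosome-binding HMGN proteins throughout the body. Cells were taken at day 0, before induction, and at day 6 of browning, after insulin, dexamethasone, IBMX, T3 and Rosiglitazone and then insulin with T3. Single-cell RNA was captured from 2 cultures for each genotype and day, giving 8 samples in 4 groups. The table pools the cells of all 8 samples and gives no value per sample, so there was no SD and no test, and neither the genotypes nor the days could be compared. The sequencing depth and cell numbers reached are not given in the sources used here, only targets.

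Splicing removes introns from newly made transcripts. The spliceosome that does this is built from snRNPs, in which a ring of Sm proteins sits on each small nuclear RNA, and from SF3a and SF3b, which belong to the U2 snRNP and help it hold the branch point of the intron. SR proteins mostly bind exons and promote the use of nearby splice sites, while hnRNPs coat the transcript and often oppose or redirect that choice. Dividing cells are known to use much of this machinery.

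Each entry gives the percent of cells in which a gene was detected, inside a cluster and in all other cells. The difference between them, inside minus outside in percentage points, is the measure used here, and a gene was called detected in more or fewer cells at 10 points or beyond. Detection is a share of cells and not a transcript level. The clusters were formed from the genes of these same cells, so each cluster against the rest is a description. An entry exists where the gene passed the authors' minimums in that cluster, and a missing entry is therefore not a value of 0.

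Clusters 5, 6 and 9, which held an estimated 22.1% of cells, were proliferating-like by 8 markers. In clusters 5 and 6 all 8 markers were detected in more cells, by 42.5 to 74.7 points and by 46.7 to 74.6 points, and in cluster 9 this held for the 6 listed. Cluster 6 also had 5 of 8 adipocyte markers in more cells, whereas cluster 5 had 6 of 8 and cluster 9 had 3 of 8 in fewer cells. Clusters 4 and 10, with 12.8% of cells, were clusters of low detection. Their listed genes had median differences of -47.2 and -48.3 points, although 6 of 8 adipocyte markers were detected in more cells in cluster 4. Cluster 11, 1.5% of cells, had 7 of 8 adipocyte markers in more cells. None of the 10 immune, endothelial and glial markers had an entry, and the study's methods state that such cells were removed.

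Members were widely detected. Over all cells, detection ran from 41.0% for Sf3a3 to 89.7% for Hnrnpa2b1, with a median of 74.4%. The family medians were 73.6% for the SR genes, 78.6% for the hnRNP genes, 78.7% for the Sm and snRNP genes and 74.6% for the SF3a and SF3b genes. Of the 128 entries, 79 lay at least 10 points above the other cells, 22 lay at least 10 points below and 27 lay between. The map of the 41 genes over the 12 clusters shows 66 of those 79 entries in clusters 5, 6 and 9.

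**Figure D1:**
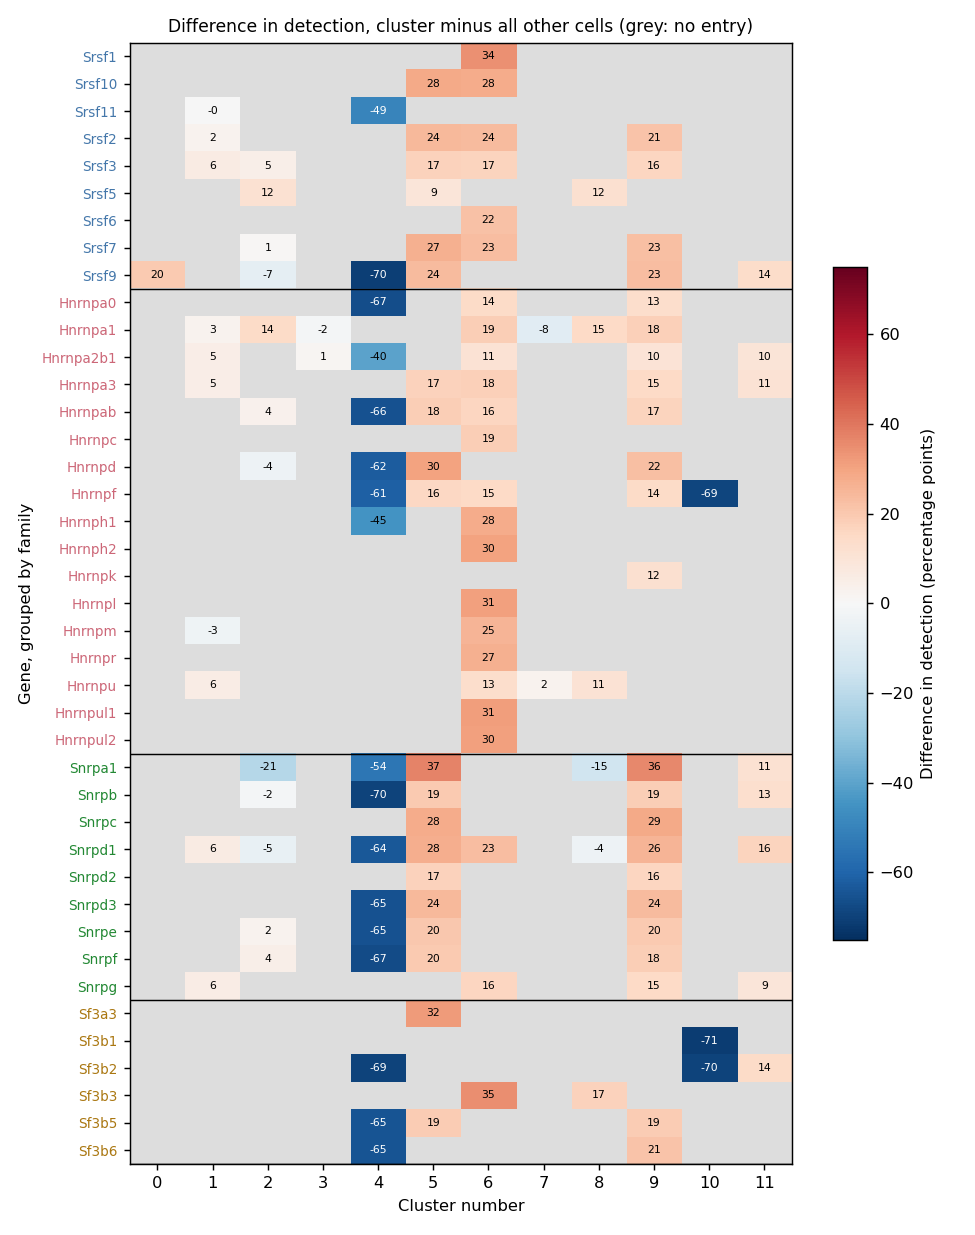
Difference in detection (percentage points, cluster minus all other cells) for the 41 genes, grouped by family, in clusters 0 to 11. Red marks more cells, blue fewer cells and grey no entry. All entries present in clusters 5, 6 and 9 are red, from 9.0 to 37.1 points, and all entries present in clusters 4 and 10 are blue.

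The sequence before the RefSeq start of 1 gene from each family is printed here because these genes show the separate patterns described next. Each was the widest-ranging member of its family across clusters that had 1 RefSeq start and at least 100 bases before any annotated exon. All are from RefSeq on GRCm38.p6, read 5′ to 3′ on the strand of the gene. Capitals mark the motifs searched, which were TTTCCCGC and TTTGGCGC for E2F, CCGGAAG for ETS, GCATGCGC for NRF1, AAGATGGC for YY1 and the CCAAT box, on both strands. The windows are chr7:66060086-66060298 (plus strand) for Snrpa1, chr5:115326927-115327176 (plus strand) for Srsf9, chr7:25754760-25755009 (minus strand) for Hnrnpul1 and chr4:124714611-124714775 (plus strand) for Sf3a3. The RefSeq start used for Snrpa1 lies inside the longer span that GENCODE gives this gene, so its window is within that span, outside the annotated exons.
Snrpa1: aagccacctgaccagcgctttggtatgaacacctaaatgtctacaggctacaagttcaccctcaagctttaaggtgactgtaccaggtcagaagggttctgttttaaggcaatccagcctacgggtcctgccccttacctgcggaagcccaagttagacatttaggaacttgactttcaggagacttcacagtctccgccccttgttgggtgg
Srsf9: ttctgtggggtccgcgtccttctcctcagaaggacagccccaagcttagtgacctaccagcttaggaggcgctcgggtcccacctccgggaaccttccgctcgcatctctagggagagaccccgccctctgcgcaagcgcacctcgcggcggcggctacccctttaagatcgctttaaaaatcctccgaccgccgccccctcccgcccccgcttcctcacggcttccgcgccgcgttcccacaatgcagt
Hnrnpul1: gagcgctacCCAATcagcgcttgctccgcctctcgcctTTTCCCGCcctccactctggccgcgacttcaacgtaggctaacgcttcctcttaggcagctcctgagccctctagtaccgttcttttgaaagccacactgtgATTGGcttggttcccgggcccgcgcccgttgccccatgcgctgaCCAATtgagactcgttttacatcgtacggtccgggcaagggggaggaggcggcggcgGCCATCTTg
Sf3a3: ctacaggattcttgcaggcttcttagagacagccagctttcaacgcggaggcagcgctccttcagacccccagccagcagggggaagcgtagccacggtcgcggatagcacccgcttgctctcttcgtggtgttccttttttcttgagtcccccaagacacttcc
Snrpa1 and Srsf9 were detected in more cells in clusters 5 and 9, Hnrnpul1 in cluster 6 and Sf3a3 in cluster 5. The Hnrnpul1 window held an E2F match that begins 212 bases before the start, 3 CCAAT boxes and a YY1 match 9 bases before the start. The other printed stretches held none of the searched letters. Such a match is a description of the letters and not of binding.

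Across the 48 windows of 250 bases available for 37 members, the E2F letters were present in 4 (8.33%), compared with 3.12% of the windows of all table genes and 1.3% of all 32851 promoter windows. Their genes were Srsf1, Srsf10, Hnrnpr and Hnrnpul1. The ETS letters were present in 14 member windows (29.2%), compared with 13.4% for table genes and 6.91% for all promoters, and in 5 of the 6 SF3a and SF3b windows. The Sf3a3 match runs into the annotated exon and past the stretch printed. The CCAAT box was present in 26 (54.2%), compared with 36.6% and 33.8%. Of the 26, 17 were windows of hnRNP genes, which supplied 25 of the 48 member windows. By gene, it was present for 21 of 37 members, beside 1285 of 3052 table genes. NRF1 letters were present in 6.25% of member windows, 4.57% of table genes and 2.26% of all. YY1 letters were present in 2.08%, 1.81% and 1.56%. Several windows belong to the same gene and overlap, so windows are not independent.

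In the proliferating-like clusters, 37 of the 41 genes were detected in more cells in at least 1 of the 3 (90.2%), beside 35.5% of all genes. Some, such as Hnrnpc and Srsf1, are listed only through entries in these clusters. The listing itself therefore raises this share, as it does for all genes. The 11 annotated members with no entry are not counted in it. Of the 41, 19 were detected in more cells in cluster 5 (46.3%), 24 in cluster 6 (58.5%) and 23 in cluster 9 (56.1%). The background over all 3896 genes was 19.5% in cluster 5, 18.8% in cluster 6 and 18.5% in cluster 9. No member was detected in at least 10 points fewer cells in any of the 3. The medians of the listed members were 22.2, 23.0 and 18.6 points, beside 25.9, 10.7 and 24.0 points for all listed genes. In clusters 5 and 9 the members therefore differed from the table at large in how many were called, while their median difference in points was smaller. Listed members were already detected in a median of 74.6% and 78.7% of the other cells, beside 52.5% and 57.7% for all listed genes. This leaves less room for a difference in points. As a ratio of implied mean counts (the Poisson mean for a detected fraction), the medians were 2.48 and 2.27, beside 2.45 and 2.29. In cluster 6 they were 2.42 and 1.92.

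**Figure D2:**
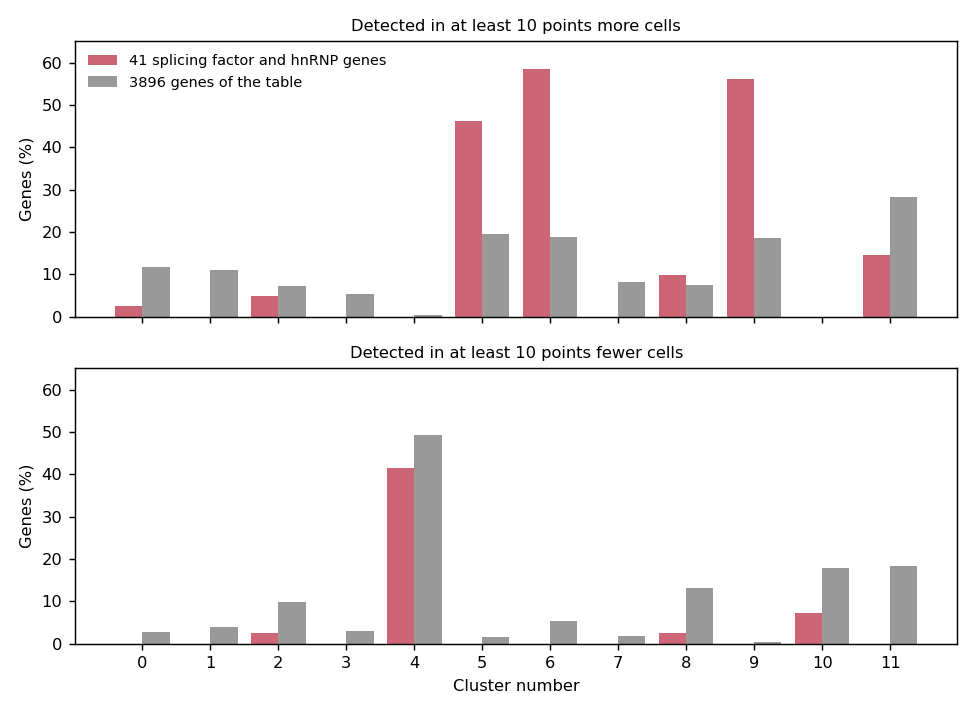
Percent of the 41 members (red) and of all 3896 genes (grey) detected in at least 10 points more (top) or fewer (bottom) cells, by cluster. Member bars stand at 46.3%, 58.5% and 56.1% for more cells in clusters 5, 6 and 9, and elsewhere at or below the grey bars, except for more cells in cluster 8 (9.76% beside 7.57%).

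The families divided these 3 clusters in different ways. Of the 9 Sm and snRNP genes, 8 were detected in more cells in cluster 5 and all 9 in cluster 9, but 2 in cluster 6. Of the 17 hnRNP genes, 15 were detected in more cells in cluster 6, 8 in cluster 9 and 4 in cluster 5. The SR genes were more evenly spread, with 5, 6 and 4 of 9 in clusters 5, 6 and 9. Of the 6 SF3a and SF3b genes, 2, 1 and 2 were (33.3%, 16.7% and 33.3%), beside 19.5%, 18.8% and 18.5% of all genes. Some family shares lay near these background shares. They were the 16.7% of SF3a and SF3b genes and the 22.2% of Sm and snRNP genes in cluster 6, and the 23.5% of hnRNP genes in cluster 5.

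Among the spliceosome core genes, Snrpa1, which encodes the U2 snRNP protein A′, had the widest range. It was detected in 90.5% of cells in cluster 5 and 53.4% of the other cells (+37.1 points), and in 90.6% in cluster 9 (+36.0 points). In cluster 2 it was detected in 38.0% of cells (-21.3 points) and in cluster 8 in 42.6% (-15.0 points). Snrpa1 was thus high in 2 proliferating-like clusters, low in clusters 2 and 8, and had no entry in cluster 6. It lies at chr7:66059003-66074587 on mm10 and overlaps another gene of the same strand, so reads of the pair may be mixed.

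Snrpd1, an Sm ring protein, was listed in 8 clusters, the most of any member. It was detected in 98.2% of cells in cluster 5 (+27.5 points), 94.6% in cluster 6 (+23.2 points) and 97.2% in cluster 9 (+25.6 points). In cluster 11 it was detected in 89.4% (+16.5 points), and in clusters 1, 2 and 8 it lay within 10 points of the other cells, at 78.6%, 68.5% and 69.5% (+6.4, -5.3 and -3.9 points). With the cells of cluster 4 left out of the other cells, these 3 differences were -0.7, -12.4 and -10.4 points. Snrpd1 had no entry in cluster 10, whose cells could not be left out. It was the 1 Sm gene listed in all 3 proliferating-like clusters.

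The other ring genes behaved much like each other in clusters 5 and 9. Snrpb was detected in 98.1% and 97.9% of those cells (+19.4 and +18.6 points), Snrpe in 97.3% and 97.4% (+20.5 and +19.9 points) and Snrpf in 97.6% and 97.0% (+19.6 and +18.3 points). Snrpg differed in its clusters, with entries at 98.6% in cluster 6 (+15.9 points) and 97.8% in cluster 9 (+14.8 points) and none in cluster 5. Snrpe and Snrpg are among the ring genes with near-identical processed copies in the mouse genome, so their reads can be split or lost. Snrpc, of the U1 snRNP, was detected in 84.8% and 86.6% in clusters 5 and 9 (+27.6 and +28.7 points), and Snrpd2 and Snrpd3 were also detected in more cells in both.

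In the SF3 complexes, Sf3a3 had an entry in cluster 5 alone, at 69.9% of cells and 38.2% of the others (+31.7 points). Sf3b3, which encodes the large scaffold protein of SF3b, was detected in 84.6% of cluster 6 (+34.8 points) and 68.6% of cluster 8 (+17.3 points). The small subunit genes Sf3b5 and Sf3b6 went with cluster 9, at 96.3% (+18.8 points) and 90.4% (+21.1 points), and Sf3b5 also with cluster 5, at 96.0% (+19.1 points). Sf3b2, by contrast, had its 1 higher entry in cluster 11, at 93.0% (+14.5 points). Subunits of 1 complex therefore differed in the clusters in which they were listed. Sf3a3 and Sf3b3 also overlap small genes on the same strand.

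Among the SR genes, Srsf2, Srsf3 and Srsf7 were detected in more cells in all 3 proliferating-like clusters. Srsf7 was detected in 96.7% of cluster 5 (+26.9 points), 93.4% of cluster 6 (+22.9 points) and 93.5% of cluster 9 (+22.6 points). Srsf2 reached 96.8%, 96.4% and 94.4% in the same order, with 24.4, 23.6 and 21.1 points. Srsf3, the smallest classical SR protein, was already detected in 82.1% of the cells outside cluster 5, and its differences were 17.0, 16.7 and 16.0 points.

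Srsf1, the founding SR protein and a well-known splicing activator, had an entry in cluster 6 alone, at 86.4% of cells beside 51.9% of the others (+34.5 points). Srsf6 had the same pattern, at 94.0% beside 72.0% (+22.0 points). Srsf9 had the reverse, with entries in clusters 5 and 9, both at 95.1% (+23.8 and +23.0 points), and none in cluster 6. Srsf9 was also the only member with an entry in cluster 0, where preadipocyte markers were higher for 2 of 3, at 90.3% of cells (+19.7 points).

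The hnRNP genes gave the clearest single-cluster group. Cluster 6, but neither cluster 5 nor 9, held the higher detection of 9 of the 17, Hnrnpc, Hnrnph1, Hnrnph2, Hnrnpl, Hnrnpm, Hnrnpr, Hnrnpu, Hnrnpul1 and Hnrnpul2. Hnrnpul1 was detected in 78.1% of its cells and 47.0% of the others (+31.1 points). Hnrnpl, which binds CA-rich elements, reached 84.5% (+30.7 points), Hnrnpul2 reached 90.5% (+30.5 points) and Hnrnph2, which binds G-runs, reached 80.3% (+30.4 points). Hnrnpm reached 94.5% (+25.3 points). No Sm or snRNP gene had this pattern.

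Hnrnpd, also called AUF1 for its binding to AU-rich elements, was the exception with the widest range among hnRNPs. It was detected in 96.5% of cluster 5 (+30.4 points) and 90.0% of cluster 9 (+22.5 points) and had no entry in cluster 6. Hnrnpa3, Hnrnpab and Hnrnpf were detected in more cells in all 3 clusters. The abundant Hnrnpa1 and Hnrnpa2b1 were detected in more cells in clusters 6 and 9, by 18.6 and 17.6 points and by 10.9 and 10.3 points. Hnrnpa2b1 was already found in 88.9% of the cells outside cluster 6, which leaves little room for a larger difference. Hnrnpa1 has many processed copies, so its reads are also uncertain.

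**Figure D3:**
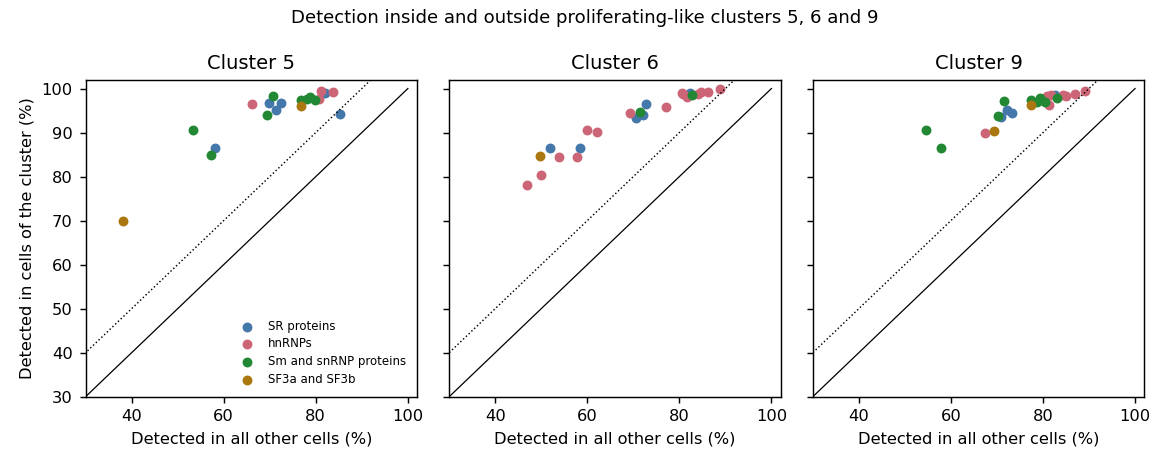
Percent of cells with each listed member detected inside a cluster (vertical) against all other cells (horizontal), for clusters 5, 6 and 9, coloured by family. The solid line marks equal detection and the dotted line a 10-point difference; all points but 1 lie above the dotted line, and cluster 6 holds mostly hnRNP genes.

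Together, 12 members were called higher in cluster 6 but neither 5 nor 9, and 13 in 5 or 9 but not 6. Another 12 were called in 6 and at least 1 of the others. A gene with no entry in a cluster counts here as not called, and its detection there is not known. Among all genes higher in at least 1 of the 3 clusters, the cluster 6 group was 27.3% (378 of 1384) and the group without cluster 6 was 47.0% (651). For the members the same shares were 32.4% and 35.1%. The cluster 6 group of members had a median exonic length of 6530 bases, and the group without cluster 6 had 2854 bases. All genes showed the same order, at 5512 and 3316 bases. So did other splicing genes listed for comparison, at 8395 bases for 19 genes and 3253 bases for 18 genes. Exonic length here is the union of all annotated exons of a gene, and its part in the result was not tested.

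**Figure D4:**
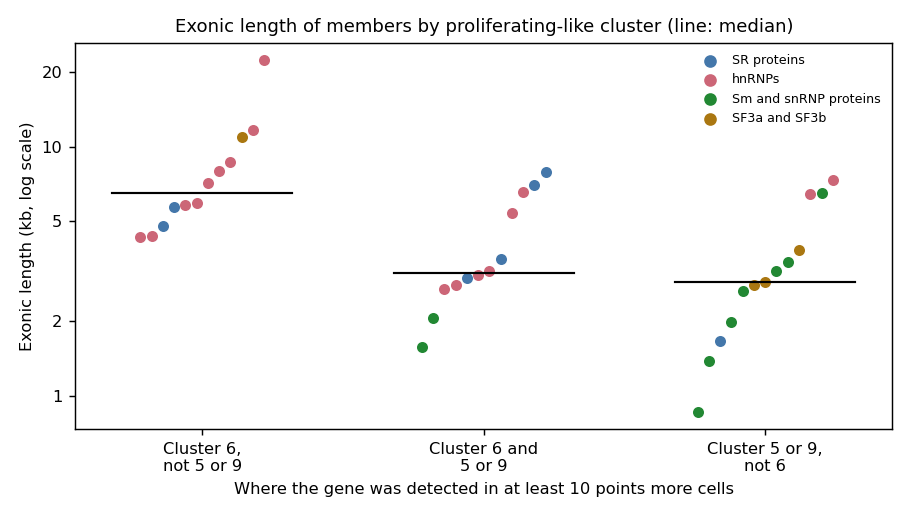
Exonic length (kilobases, log scale) of the 37 members detected in at least 10 points more cells in cluster 5, 6 or 9, by where they were higher, coloured by family. Each point is 1 gene and each line a group median; medians are 6530, 3100 and 2854 bases from left to right, with overlapping groups.

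The cells of clusters 4 and 10 are among the other cells in each of these comparisons and lower the outside value. For the 15 members listed in cluster 4 or 10 as well as in 5, 6 or 9, the difference was computed again. Only the cells of a low-detection cluster in which the gene had an entry could be left out. For all of these members but Hnrnpf this was cluster 4 alone, so the cells of cluster 10 stayed in the outside value. The median of the 31 entries of these members went from 19.6 to 12.6 points, and 23 of the 31 stayed at or above 10 points. Snrpa1 in cluster 5 went from 37.1 to 31.7 points, Hnrnpd from 30.4 to 24.1 points and Snrpd1 from 27.5 to 21.0 points. Hnrnpf in cluster 9 had the lowest value, 5.2 points, with both clusters left out, so it is not on the same footing as the others. UMIs per cell were not analysed here, and their part in these differences was not tested.

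Only 4 members had no such call in clusters 5, 6 and 9, namely Srsf5, Srsf11, Sf3b1 and Sf3b2. Srsf5 passed the call in clusters 2 and 8 instead. It was detected in 96.3% of cells in cluster 2 (+11.6 points) and 97.7% in cluster 8 (+12.3 points), and in 94.3% in cluster 5 (+9.0 points). Clusters 2 and 8 had 5 and 6 of 8 adipocyte markers in more cells and 6 proliferation markers each in fewer cells. The 3 values of Srsf5 lay close together. Pooled over the other 9 clusters, its detection worked out from the cluster shares was 82.5%, and its value in each of them is not known.

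Clusters 2 and 8 held members in both directions. In cluster 2 the signs were mixed within families too, though no family had calls in both directions. In cluster 8 no family held both signs. In cluster 2, where 12 members were listed, Srsf5 and Hnrnpa1 (94.6%, +14.5 points) were detected in more cells and Snrpa1 in fewer, as 4.88% and 2.44% of members beside 7.16% and 9.98% of all genes. In cluster 8, Sf3b3, Srsf5, Hnrnpa1 (95.9%, +14.9 points) and Hnrnpu (97.6%, +10.9 points) were detected in more cells and Snrpa1 again in fewer. These were 9.76% and 2.44% of members, beside 7.57% and 13.1% of all genes. Both shares of higher members lay near the background. Of the 5 Sm and snRNP genes listed in cluster 2, Snrpa1, Snrpd1 and Snrpb had differences of -21.3, -5.3 and -1.6 points, while those of Snrpe and Snrpf were 2.4 and 4.2 points. With the cells of cluster 4 left out, all 5 lay below the other cells, at -27.6, -12.4, -9.3, -4.7 and -3.1 points. Snrpe and Snrpf thus changed sign. Hnrnpab changed sign as well in cluster 2, from 3.5 to -3.7 points, and Srsf9 and Hnrnpd passed the call, at -14.5 and -11.0 points. None of these genes had an entry in cluster 10, whose cells could not be left out.

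In the adipocyte-marker cluster 11, 6 of 41 members were detected in more cells (14.6%), beside 28.2% of all genes. The 8 listed members ran from 9.3 points for Snrpg to 16.5 points for Snrpd1, and none reached 20 points. With the cells of cluster 4 left out, Snrpd1 stood at 10.4 points, Srsf9 at 6.6, and Snrpb and Snrpa1 at 6.0. Sf3b2, which had an entry in cluster 10 too, stood at 5.0 with both clusters left out. Of these 5 calls, that of Snrpd1 was kept, with the cells of cluster 10 still in its outside value. Its difference without them is not known. The same step was not run over all genes.

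In clusters 0, 1, 3 and 7 the members showed little. Srsf9 in cluster 0 was the 1 call in these 4 clusters (2.44% of members, beside 11.7% of all genes). No member reached 10 points more in clusters 1, 3 or 7, although 429 of the 3896 genes did in cluster 1, 5.31% in cluster 3 and 8.21% in cluster 7. The 10 members listed in cluster 1 lay between -3.4 points for Hnrnpm and 6.4 points for Snrpd1, and Hnrnpa1 in cluster 7 lay at 74.0% (-8.4 points).

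In the low-detection clusters the members went with the other genes. All 17 members listed in cluster 4 were detected in fewer cells, 41.5% of the 41 beside 49.3% of all genes, with a median of -65.0 points. Snrpa1 was detected in 7.8% of these cells and Srsf9 in 9.7%, the lowest values, while Hnrnpa2b1 was still detected in 53.7% (-39.9 points). In cluster 10, Hnrnpf, Sf3b1 and Sf3b2 were detected in 18.4%, 10.7% and 11.3% of cells, 7.32% of members beside 18.0% of all genes. Sf3b1, the branch-point subunit known for mutations in blood cancers, had no other entry. Fewer cells with a transcript and fewer transcripts per cell cannot be told apart from detection.

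Of 132 other splicing genes listed for comparison, 71 had an entry, and 50 of the 71 were detected in more cells in cluster 5, 6 or 9 (70.4%, beside 35.5% of all genes). Here too some, such as Acin1, have an entry only through these clusters. Those detected in more cells numbered 24 in cluster 5 (33.8%), 32 in cluster 6 (45.1%) and 22 in cluster 9 (31.0%). The same shares of all genes were 19.5%, 18.8% and 18.5%. Lsm2, a protein of the LSm ring on U6 RNA, had the widest range and the same clusters as Snrpd1, at 90.6%, 85.6% and 88.5% in clusters 5, 6 and 9 (+46.4, +40.3 and +42.7 points). Like Snrpa1 it was low in clusters 2 and 8, at 29.5% (-21.4 points) and 31.7% (-17.6 points). Alyref, an export adaptor, was detected in more cells in the same 3 clusters, by 38.7, 31.8 and 35.8 points. Sap18 followed the 5 and 9 pattern (+27.9 and +30.5 points), Snrnp40 had cluster 5 alone (+34.0 points) and Wbp11 cluster 6 alone (+34.0 points). Lsm1 had cluster 11 alone (93.9% of cells, +40.8 points). It was listed with the LSm genes but is not part of the ring on U6 RNA.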

How the data were processed

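Single cells of 8 samples were captured by the 3′ Chromium method. According to the methods, the authors aligned reads with Cell Ranger 6.0.0 to mm10, aggregated and depth-equalized the captures, filtered and clustered cells in Seurat without those of immune, glial and endothelial type and compared each of 12 clusters with all remaining cells by MAST. No doublet removal is described, and none was possible here. The deposited table held 13337 entries for 3903 symbols. The authors deposited detection as a fraction of cells inside and outside the cluster, printed here as percents. The larger was never under 10.1%, so rarely detected genes are missing. The deposited p-values, adjusted p-values and log2 fold changes are the authors' own comparisons and were not used. Columns of per-sample values left unused numbered 0.

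Calls were made at 10 percentage points. The 35 entries under 7 symbols that had turned into dates were left out of counts. Cluster shares were solved by least squares, since the share-weighted mean of both fractions must be the same for every cluster. This used the 10 genes listed in all 12 clusters, and the shares summed to 99.9%. The step was tested on simulated data. A member's detection over all cells agreed between its entries within 0.101 points. Without the depth or cell numbers reached, no interval could be given. Gene positions and lengths came from GENCODE for GRCm38 (mm10), and 8 members overlap another gene on the same strand. Python 3.11.15, numpy 2.4.6, pandas 2.3.3 and matplotlib 3.10.9 were used.

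The members and lists were chosen with earlier results of these data known. Named genes were, per family, the 6 with the widest range of differences outside clusters 4 and 10 (a single entry counting against 0), members listed in at least 8 clusters, members differing by at least 20 points in cluster 11, members moving against their family, and the 6 widest-ranging other splicing genes. This named 23 members. Any further member was named after its values were seen. Alternatives were thresholds of 5 and 20 points, a ratio of implied mean counts (the Poisson mean for a detected fraction) of 1.25 or 0.8, and genes detected in 20% to 80% of the other cells.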

Additional observations from a re-analysis of the deposited data

How the results depend on the processing

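Counts are of gene-by-cluster entries. In clusters 5, 6 and 9, the 66 entries with more cells became 34 at 20 points and 43 among genes detected in 20% to 80% of other cells. In cluster 11, 6 became 0 at 20 points. In clusters 0, 1, 2, 3, 7 and 8, 7 became 12 at 5 points, 0 at 20 points and 2 in the 20% to 80% band, and the 2 entries with fewer cells became 5 at 5 points and 1 at 20 points. In clusters 4 and 10, 20 became 7 in that band. A stricter threshold or a narrower band leaves fewer entries by construction. With the ratio of implied mean counts, all 8 counts stayed within 1.5 times. Leaving out clusters 4 and 10, each only where the gene had an entry in it, took 31 entries to 23 in clusters 5, 6 and 9. This step was added after the data were seen. In the same way, 5 with more cells became 1 in cluster 11, and 2 with fewer cells became 6 in clusters 0, 1, 2, 3, 7 and 8. Solving from all genes listed in at least 2 clusters moved no share by over 0.058 points. No paired analysis was possible because no values per sample were used here. For the same reason no replicate could be left out.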

Other observations

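Several regulators of tissue-specific splicing, which are not members, had entries in clusters with adipocyte markers. These genes were picked after their values were seen. Of the 71 other splicing genes with an entry, 11 were detected in more cells in cluster 11 (15.5%), beside 28.2% of all genes. In cluster 8, 5 were (7.04%), beside 7.57% of all genes. Celf2 was detected in 88.4% of cells in cluster 8 (+27.4 points, inside minus outside) and 96.8% in cluster 11 (+34.7 points). Mbnl1, a muscleblind protein that also acts in muscle splicing, was detected in 86.7% of cluster 6 (+25.5 points), 82.6% of cluster 8 (+20.8 points) and 95.3% of cluster 11 (+32.7 points). Its relative Mbnl2 had another pattern, at 94.6% in cluster 0 (+17.2 points), 94.2% in cluster 1 (+16.6 points) and 70.0% in cluster 8 (-10.5 points). In cluster 11, Mbnl2 lay at +2.5 points and Ptbp3 at +7.4 points. Rbfox2 had its 1 entry in cluster 4, at 10.4% (-58.3 points). Qk was listed in cluster 11 alone, at 93.9% (+24.2 points). Among kinases that phosphorylate SR proteins, Clk1 was detected in 56.3% of cluster 8 (+20.4 points) and Srpk1 in 81.4% of cluster 5 (+31.6 points). The part of cell numbers, day and genotype in these differences was not tested.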
